A study of Mus musculus with 48 samples.

Results

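Type 1 conventional dendritic cells were taken from the whole-tumor mixture as cells with at least 500 genes, at least 2 unique molecular identifiers (UMIs) over Xcr1 and Clec9a together, 0 UMIs of Ccr7, at most 1 UMI of Ms4a7 and 0 UMIs of Cd3e, Cd3d and Cd3g. The rule took 67 of the 8726 cells of the mixture that had 500 or more genes (0.768%), while the whole series held 14261 such cells. Xcr1 (chr9:123852315-123862029, mm10) encodes the receptor for the chemokine Xcl1, and Clec9a (chr6:129408862-129424763) a receptor for actin filaments that dead cells expose. The members were thus selected on measured UMIs, so the levels of these genes are given as a description with no test.

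Type 1 conventional dendritic cells depend on the transcription factors Irf8 and Batf3 and on the growth factor receptor Flt3. They take up material of dead cells and present its peptides on MHC class I to CD8 T cells, a route called cross-presentation, and they are rare in most tumors. Type 2 conventional dendritic cells mainly present peptides on MHC class II to CD4 T cells, and cells of either kind turn on Ccr7 and Fscn1 when they mature and leave for the lymph nodes.

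The tumors were grown from GL261, a mouse glioma line, implanted into the striatum of male C57BL/6 mice aged 6 weeks per the methods of the paper. The implanted cells carried a retroviral short hairpin RNA, either a negative control (shNC) or a hairpin against Selp (shSELP), the gene of P-selectin, while the dendritic cells came from the host. The labels give day 16 for these libraries, whereas the methods give day 17 and a pool of 3 brains per group. The sorted CD11b+ cells, the rest of the CD45+ cells and the tumor cells went into the mixture at equal numbers, so a share of cells holds for the mixture and says nothing of the proportions in the tumor. Each group had 2 libraries, and the labels do not say whether these came from separate animals or cultures, so the p-values measure the spread between these libraries only. Selp was at 0.743 and 1.11 CPM (UMIs scaled to the same library sum) over all cells of the shNC libraries and at 1.21 and 0.823 CPM over those of the shSELP libraries. The mixture pools tumor and host cells, so these overlapping levels do not check the hairpin.

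Values per library are given in the order shNC 1, shNC 2, shSELP 1 and shSELP 2. The libraries held 22945972, 22626413, 17398121 and 25589350 UMIs in 2289, 2297, 2293 and 2293 cells. The type 1 cells numbered 20, 20, 14 and 13 and held 251782, 260162, 158329 and 240802 UMIs in sum. Their median depth was 11527.5, 10909.5, 10025 and 17744 UMIs per cell, so the members of shSELP 2 were the deepest and shSELP 1 had the smallest sum. Over all members the median was 12354 UMIs (range 1629 to 29272) and 2718 genes, against 8206.5 UMIs for all cells of the mixture. A gene at 3 UMIs in the summed type 1 cells would stand at 11.9, 11.5, 18.9 and 12.5 CPM, and intervals and floors cover counting error only. The median share of mitochondrial UMIs was 3.02% and the highest 4.93%. The libraries of the mixture shared 5 cell barcodes, carried by 10 cells, of which 0 were members. Scrublet called 76 of the 8726 cells as doublets, with 0 of the 67 members but 1 of 36 Cd209a cells and 1 of 221 mature cells among them, and its calls were kept.

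**Figure D1:**
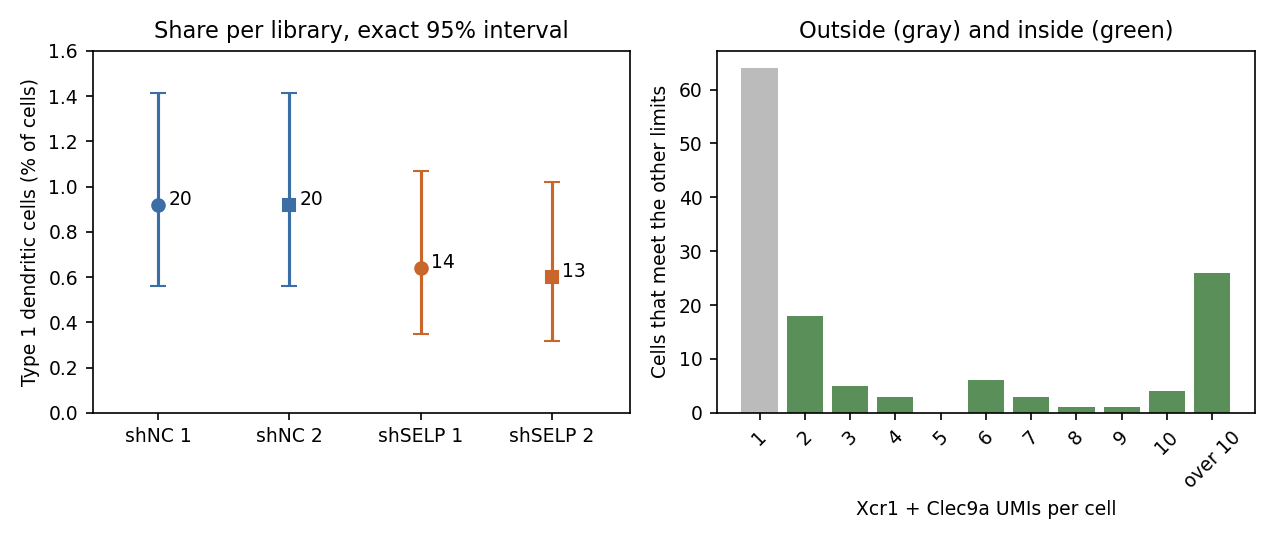
Left, the share of cells (%) that were type 1 dendritic cells in each library, with the number of cells beside each point and the exact 95% interval as a bar; right, the number of cells by UMIs of Xcr1 plus Clec9a among those that met the other limits. The shares were 0.916% and 0.918% in shNC and 0.639% and 0.598% in shSELP, and 64 cells with 1 UMI lay just outside.

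Both genes of the rule were found in 45 members, Xcr1 without Clec9a in 7 and Clec9a without Xcr1 in 15. Their sum had a median of 7 UMIs and a highest value of 32, with 26 members above 10 UMIs. Xcr1 stood at 481, 423, 392 and 490 CPM and Clec9a at 250, 300, 347 and 228 CPM in the type 1 cells of the libraries. Neither gene separated the groups. Before the limits on Ccr7, Ms4a7 and the Cd3 genes, 120 cells had 2 or more UMIs, of which 40 held Ccr7, 11 held more than 1 UMI of Ms4a7 and 8 held a Cd3 gene. The 18 members at 2 UMIs lay just inside the rule and 64 cells at 1 UMI just outside. Itgae, the integrin chain CD103, had a UMI in 9.38% of the cells outside, in 16.7% of those just inside and in 89.8% of the 49 members with 3 or more. For Flt3 the shares were 14.1%, 27.8% and 79.6%, and for the macrophage gene C1qa 37.5%, 27.8% and 18.4%. The members at the limit were closer to the cells outside than to the other members on Itgae and Flt3. Their median depth was 7451.5 UMIs, against 9024 outside and 14022 for the other members.

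The given markers outside the rule were found in most members. Batf3 had a UMI in 61.2% of the 67 cells, Itgae in 70.1% and Flt3 in 65.7%. Neutrophils, which should lack these genes, had a UMI of each in 0 of 42 cells, which allows a share of up to 7.14%, at a median depth of 2730.5 UMIs. T cells, with a median of 6180 UMIs, showed 5.13%, 10.6% and 0.971%, where T cells resident in tissue are known to carry CD103. With every cell thinned to 2000 UMIs the shares in 66 members were 15.2% for Batf3, 40.9% for Itgae and 28.8% for Flt3, against 1.68%, 4.65% and 0.224% of T cells and 0 of 30 neutrophils, which allows up to 10% of them. Genes known for type 1 cells but not used by the rule were also frequent. Thinned shares of Naaa, a lysosomal amidase, were 60.6% in members, 19.4% in Cd209a cells, 2.28% in mature cells, 1.23% in T cells and 13.3% in neutrophils. For Wdfy4, which is needed for cross-presentation of cell-associated antigen, they were 47.0%, 5.56%, 1.37%, 0.224% and 0%. Each given marker was thus found in a larger share of members than of T cells or neutrophils, at equal depth too. Thinned mature cells had Batf3 in 32.4%, more than the members, Flt3 in 22.8% and Itgae in 0 of 219 (up to 1.37%), and thinned Cd209a cells had 8.33%, 8.33% and 2.78%.

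Markers of other cells were counted in the members over whole lists. The macrophage list was found with 9 of 11 genes and summed to 862, 1149, 821 and 2708 CPM, against 29677 CPM over the mixture. Its most abundant gene was Lyz2 (569 UMIs), while Mrc1 was at 0. The sum was highest in shSELP 2, where 1 cell held 98 of 100 UMIs of C1qa and 155 of 175 UMIs of Apoe. The microglia list was found with 8 of 8 genes and summed to 159, 611, 202 and 203 CPM. The plasmacytoid list was found with 7 of 7 genes and summed to 413, 165, 126 and 880 CPM, led by Ly6d, of which 1 cell of shSELP 2 held 148 of 178 UMIs. The type 2 dendritic list was found with 6 of 6 genes and summed to 15.9, 123, 126 and 486 CPM, led by Cd209a with 108 UMIs in 3 cells, of which 1 cell of shSELP 2 held 78. Few cells thus carried most UMIs of C1qa, Apoe, Ly6d and Cd209a, while 45 members held 5 or more UMIs of the macrophage list. Library shSELP 2 stood highest for 3 of these 4 lists.

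The lists of T cells, NK cells, neutrophils, tumor cells and red cells were low in the members beside the mixture, and the B cell list was not in every library. The T cell list, outside the rule, was found with 6 of 7 genes at 71.5, 0, 6.32 and 41.5 CPM, led by Cd8b1 with 12 UMIs, and Lck was at 0. The NK list was found with 2 of 6 genes at 11.9, 19.2, 0 and 4.15 CPM, led by Klre1, and Ncr1, Klrb1c, Prf1 and Nkg7 were at 0. The B cell list was found with 4 of 6 genes at 159, 76.9, 63.2 and 104 CPM, of which Ighm gave 88 UMIs, while the defining Ms4a1 was at 0, and over the mixture the list stood at 225, 406, 132 and 78.6 CPM. The neutrophil list was found with 2 of 6 genes at no more than 7.69 CPM in any library, and S100a9, Retnlg, Cxcr2 and Mmp9 were at 0. The tumor list was found with 5 of 6 genes at 27.8, 34.6, 6.32 and 4.15 CPM, led by H19, with Nes at 0, and all 5 red cell genes were at 0, while shSELP 1 as a whole held 703 CPM of them. An alternative chosen after seeing the data left out the 14 members with 20 or more UMIs of any one of these lists (4, 3, 2 and 5 cells).

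Type 1 cells made up a smaller share of the shSELP libraries. Of the cells with 500 or more genes, 20 of 2183 and 20 of 2179 were type 1 in the shNC libraries, or 0.916% and 0.918%, and 14 of 2190 and 13 of 2174 in the shSELP libraries, or 0.639% and 0.598%. Exact Clopper-Pearson 95% intervals were 0.560 to 1.41%, 0.562 to 1.41%, 0.350 to 1.07% and 0.319 to 1.02%. Both shSELP shares lay below both shNC shares, while the intervals of all 4 libraries overlapped. The mean difference, shSELP minus shNC, was −0.298 percentage points, and the exact two-sided permutation test gave p = 0.333, which is the smallest p that 2 against 2 libraries allow. As a share of the 3 dendritic populations together, type 1 cells made up 33.3%, 19.8%, 21.2% and 13.4%, where the groups overlapped (exact permutation p = 0.667). That denominator held 60, 101, 66 and 97 cells. With the rule applied to cells thinned to 2000 UMIs, 35 cells remained at 0.444%, 0.647%, 0.205% and 0.455%, and the groups overlapped as well.

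A part of the type 1 cells carried transcripts of dividing cells. At least 3 UMIs over 10 mitotic genes, such as Mki67, Top2a and Cdk1, were found in 13.6% of 66 members thinned to 2000 UMIs. The share was 0 of 36 in Cd209a cells, which allows up to 8.33%, 1.37% of 219 mature cells and 3.33% of 30 neutrophils, which do not divide. Without thinning, the UMIs of these genes ran from 0 to 100 per member with a median of 1, and 12 members held 10 or more while 30 held 0. By library, 5 of 20, 0 of 19, 2 of 14 and 2 of 13 thinned members reached the limit, or 25.0%, 0%, 14.3% and 15.4%, where 0 of 19 allows up to 15.8%. Library shNC 1 was highest and shNC 2 lowest, so the groups overlapped. The difference of 2.34 percentage points had an exact two-sided permutation p of 1.0, and it was −10.2 without shNC 2 and 14.8 without shNC 1. Without thinning the shares were 30%, 20%, 35.7% and 46.2%, where the groups did not overlap (difference 15.9, p = 0.333) and the members of shSELP 2 were the deepest.

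Between the groups, type 1 cells of shSELP tumors held more transcripts of the chemokine Ccl22 and of glycolytic enzymes, and fewer of immediate early genes such as Dusp1, Fos and Fosb, in both libraries of the group. No gene passed the test. edgeR called 0 of 3154 genes at an adjusted p of 0.05 (0.0%), with 175 at an unadjusted p under 0.05, and DESeq2 called 0 with 38 unadjusted. The lowest adjusted p was 0.164, and the median standard error of a log2 fold change was 0.40. Counts were also simulated with a larger dispersion, the spread between libraries beyond counting error, than the 0.0362 fitted to these cells. There the test recovered 111 of 174 genes changed by a log2 fold of 2 and 0 of 176 changed by 1. The settings differ, so these recoveries do not give the power of the test here. As no gene was called, the 5 genes of lowest p in each direction with a mean of at least 100 CPM are given by their levels.

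Ccl22, which draws regulatory T cells and is known for mature dendritic cells, stood at 27.8 and 26.9 CPM in the shNC libraries and at 284 and 137 CPM in the shSELP libraries (log2 fold change 2.96, standard error 0.49, adjusted p = 0.164). Both shSELP libraries were far above both shNC libraries. The UMIs numbered 7, 7, 45 and 33 and came from 2, 2, 5 and 5 cells. Higd1a, a mitochondrial protein induced by low oxygen, stood at 151 and 146 CPM against 562 and 291 (1.57, adjusted p = 0.456). Ier3, an early response gene, stood at 71.5 and 76.9 CPM against 227 and 195 (1.56, adjusted p = 0.456). For both genes the shNC libraries lay close together and under the shSELP libraries. Il12b, the shared chain of interleukins 12 and 23, had 23.8 and 15.4 CPM against 278 and 70.6 (3.13, adjusted p = 0.456), and 32 of its 44 UMIs in shSELP 1 came from 1 cell. Marcksl1, a regulator of actin that is abundant in mature cells, had 35.7 and 23.1 CPM against 120 and 112 (2.02, adjusted p = 0.456).

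Glycolytic genes were higher as a group in the shSELP libraries. Gapdh, the glycolytic dehydrogenase, stood at 584 and 496 CPM in shNC and 985 and 1184 CPM in shSELP type 1 cells (log2 fold change 1.07, standard error 0.18, adjusted p = 0.164). Tpi1, the triose phosphate isomerase, stood at 286 and 250 CPM against 404 and 623 (1.01, standard error 0.24, adjusted p = 0.470). Neither gene overlapped between groups, and the shSELP libraries were the higher ones. Of the 20 genes of the glycolysis and hypoxia list 15 were tested, and all 15 fold changes were positive, and 11 were higher in both shSELP libraries than in both shNC libraries, against 15.3% of all tested genes. Their median log2 fold change was 0.77 beside 0.02 for all tested genes. Other members were Aldoa (496 and 504 against 903 and 735 CPM), Pgk1 (385 and 281 against 531 and 652 CPM) and Gpi1 (306 and 300 against 448 and 594 CPM). Bnip3, a mitophagy receptor induced by low oxygen, had 3, 1, 10 and 15 UMIs, of which 1 cell of shSELP 1 held 9. The list summed to 4520, 4601, 6152 and 7583 CPM in type 1 cells and to 7327, 5691, 5056 and 7222 CPM over the mixture, so the mixture did not show the same order. Several near-identical copies of Gapdh exist in the genome, so its counts carry that uncertainty.

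Immediate early genes, which rise within minutes of stimulation and also during tissue dissociation, were lower as a group in the shSELP libraries. Dusp1, a phosphatase that shuts down MAP kinases, stood at 453 and 611 CPM in shNC and at 145 and 212 CPM in shSELP (log2 fold change −1.49, standard error 0.25, adjusted p = 0.164). Fos stood at 453 and 746 CPM against 101 and 262 (−1.61, standard error 0.36, adjusted p = 0.456). Fosb stood at 175 and 319 CPM against 56.8 and 83.1 (−1.72, standard error 0.38, adjusted p = 0.456). The shSELP libraries were the lower ones for these transcription factors and for Dusp1, with no overlap, and shNC 2 was the highest for each. Klf6 had 647 and 984 CPM against 322 and 457 (−0.99, adjusted p = 0.470) and Jun 254 and 669 against 183 and 162 (−1.36, adjusted p = 0.604). All 16 genes of the list were tested, 11 were negative, and 9 were lower in both shSELP libraries, against 20.1% of all tested genes. The median was −0.47 beside 0.02, while 5 genes were positive, Ier3 the most, and 2 were higher in both shSELP libraries. The list summed to 6807, 8391, 4787 and 5673 CPM in type 1 cells and to 8677, 8768, 13556 and 8949 CPM over the mixture, where shSELP 1 was the highest. The part of tissue dissociation in these levels was not tested. Myl6, a light chain of myosin outside every list, stood at 1041 and 1265 CPM against 701 and 631 (−0.73, adjusted p = 0.470).

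**Figure D2:**
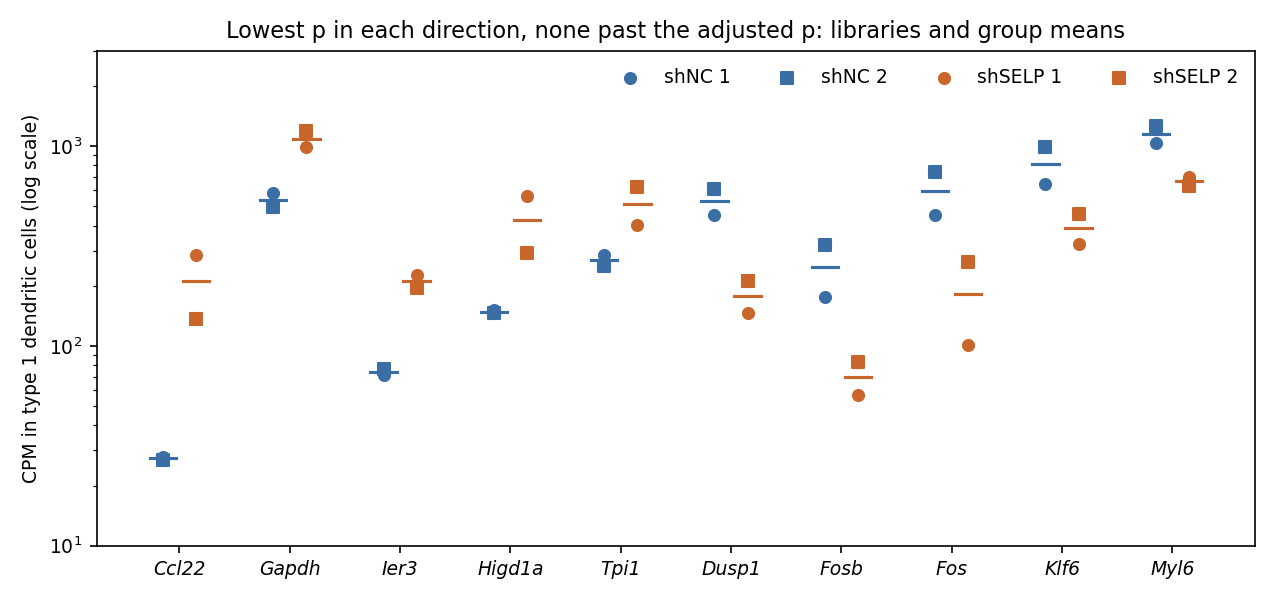
Levels (CPM, log axis) in type 1 dendritic cells of the 5 genes of lowest p in each direction, with a point per library and a line at the mean of each group. For each gene the libraries of the groups do not overlap, as for Ccl22 at 27.8 and 26.9 CPM in shNC and 284 and 137 CPM in shSELP, and none passed the adjusted p.

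Identity genes of type 1 cells leaned lower in shSELP, while the antigen presentation lists had medians near 0. Of 26 identity genes outside the rule 22 were tested, and 15 fold changes were negative and 7 positive, with a median of −0.20 beside 0.02. Of the 22 genes 9 were lower in both shSELP libraries, against 20.1% of all tested genes, 4 had an unadjusted p under 0.05, and the lowest fold change was −1.06. None of the genes of the lists passed the test between groups, so medians and levels are given. Irf8 stood at 1342, 1365, 1023 and 831 CPM (−0.49, adjusted p = 0.834), and Naaa at 850, 742, 404 and 644 CPM (−0.53, adjusted p = 0.857). Rab7b, which steers late endosomal traffic, stood at 203, 211, 82.1 and 120 CPM (−0.95, adjusted p = 0.657). These genes were lower in both shSELP libraries, as was Itgae by less, at 361, 423, 347 and 341 CPM, while Flt3 overlapped at 139, 104, 107 and 112 CPM. Members at the limit of the rule carried less of such genes, with Naaa at 234 CPM against 773 in members with 3 or more UMIs. The latter were 17 of 20, 14 of 20, 9 of 14 and 9 of 13 members, a smaller share in both shSELP libraries, and among them the fold changes were −0.43 for Irf8, −0.29 for Naaa and −0.82 for Rab7b. With the 14 members that carried other cells' markers left out they were −0.22, −0.42 and −0.75. All 11 MHC class II genes were tested with a median of 0.06, and their sum was 50333, 48827, 53357 and 47632 CPM. For the class I and cross-presentation list 18 of 21 genes were tested with a median of 0.01 and fold changes between −0.31 and 0.31. The costimulation list had 9 of 19 genes tested and a median of 0.07.

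Fold changes ran wider among secreted signals. The cytokine and chemokine list had 12 of 23 genes tested, 7 at an unadjusted p under 0.05 (beside 175 of all 3154 tested genes) and a median of 0.30. In both shSELP libraries 3 genes were higher and 3 lower, against 15.3% and 20.1% of all tested genes. The inflammatory chemokines Ccl3 and Ccl4 were lower in both shSELP libraries, with Ccl3 at 55.6, 165, 25.3 and 20.8 CPM (−2.21, adjusted p = 0.565) and Ccl4 at 635, 769, 309 and 502 CPM (−0.72, adjusted p = 0.657). Among members with 3 or more UMIs of the rule's genes Ccl4 was at −0.146, and without shNC 2 Ccl3 was at −1.23. Cxcl9, which draws CD8 T cells through Cxcr3, was level at 1009, 1284, 1099 and 1030 CPM. The receptor list had 12 of 19 genes tested and a median of 0.14, and the list of pattern recognition and dead cell uptake 11 of 26 and a median of −0.02. Type I interferon-stimulated genes had 19 of 24 genes tested, 15 positive and a median of 0.25. Irf7, which amplifies the interferon response, stood at 417, 519, 935 and 664 CPM (0.83, adjusted p = 0.565). Interferon-gamma-induced GTPases had 4 of 14 genes tested and a median of −0.16. The maturation list had 11 of 20 genes tested, 10 positive and a median of 0.31.

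Chaperone levels were highest in a single library. Heat-shock chaperones had 9 of 11 genes tested and a median of 0.73, with a sum of 6295, 7111, 12202 and 7446 CPM. Of the tested genes 8 were positive and 4 higher in both shSELP libraries, against 15.3% of all tested genes. Library shSELP 1 was by far the highest, with Hsp90aa1 at 361, 530, 1642 and 478 CPM and Dnaja1 at 250, 304, 909 and 349 CPM. In that library 1 cell held 153 of the 260 UMIs of Hsp90aa1. Without shSELP 1 the log2 fold change of Hsp90aa1 was 0.09 and that of Dnaja1 0.33. Cell cycle genes had 20 of 43 found genes tested and a median of 0.37, and their sum of 4043, 1657, 2312 and 4792 CPM overlapped between groups. Among markers of other cells, Cd209a stood at 0, 46.1, 114 and 324 CPM (3.29, adjusted p = 0.470), and the macrophage list had 6 genes tested, all positive, with a median of 0.91. With the 14 members that carried them left out, the log2 fold change was 3.13 for Ccl22, 0.98 for Gapdh, −1.19 for Dusp1 and −1.04 for Fosb, and none passed.

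The count of 0 depended on every library. edgeR called 36 genes without shNC 1, 37 without shNC 2, 44 without shSELP 1 and 49 without shSELP 2, where the lone library of a group is assumed to vary like those of the other. Of the 105 genes called in any of these fits, 6 were called in all 4, namely Ccl22, Gapdh, Dusp1, Fos, Cd209a and Ly6d. The log2 fold change ran from 2.30 to 3.44 for Ccl22, from 0.93 to 1.20 for Gapdh, from −1.78 to −1.29 for Dusp1 and from −2.47 to −1.20 for Fos. Ly6d, a surface protein of plasmacytoid precursors carried by 3 members, turned from 9.14 at the highest to −6.72 without shSELP 2. Fosb (−1.25) and Jun (−0.52) were not called without shNC 2, and Higd1a (0.96) and Il12b (1.82) not without shSELP 1. With library number as a replicate block the count was 0, with 149 genes at an unadjusted p under 0.05.

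Type 1 cells differed from the Cd209a type 2 dendritic cells of the same libraries in identity genes, glycolysis and interferon-induced genes. The genes Ppt1, Naaa, Wdfy4 and Gapdh were higher in type 1 cells in all 4 libraries. The chemokines Cxcl10 and Ccl9 and the interferon-induced Ifit3 were lower in all 4. The comparison set 67 cells against 36 (7, 13, 8 and 8 per library), with the library as a term and the genes of either rule left out. Of 1702 genes tested, edgeR called 372 (21.9%), of which 146 were higher (8.58%) and 226 lower (13.3%) in type 1 cells. Every list count against Cd209a cells below is to be read beside these shares. The count was 236 without shNC 1, and between 252 and 418 without each of the others.

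The transcription factor Irf8 stood at 1342, 1365, 1023 and 831 CPM in type 1 cells and at 620, 306, 302 and 608 CPM in Cd209a cells, where it was lower in every library (log2 fold change 1.33, standard error 0.28, adjusted p = 0.0103). Ppt1, a lysosomal thioesterase, stood at 798, 849, 796 and 864 CPM against 77.5, 40.8, 53.3 and 52.4 (3.95, standard error 0.26, adjusted p = 3.9e-05). Cst3, an inhibitor of cysteine proteases and the most abundant gene of the identity list, stood at 34240, 37258, 32129 and 25826 CPM against 6146, 4010, 6704 and 6883 (2.46, standard error 0.19, adjusted p = 8e-05). The populations did not overlap for any of these genes. Of 26 identity genes 15 were tested, and those near 0 in Cd209a cells only because type 1 cells carried them. The list thus gives no direction as a group, and of the 15 genes 10 rose, with a median of 1.84 beside 0.02 for all tested genes. Examples were Itgae (4.65, adjusted p = 0.000861), Naaa (2.78, adjusted p = 0.000275), Wdfy4 (2.26, adjusted p = 0.00137) and the ribonuclease gene Rnase6 (1.84, adjusted p = 0.00878). Batf3 stood at 123, 80.7, 56.8 and 83.1 CPM against 103, 10.2, 35.6 and 21.0 and did not pass (1.32, adjusted p = 0.0923), nor did Flt3 (0.81, adjusted p = 0.126). Cadm1, an adhesion molecule, was at 0 in all Cd209a libraries and at least 7.39-fold higher in type 1 cells. Tlr3, a sensor of double-stranded RNA, had 47 UMIs against 1, a ratio of 14.9 with a counting interval of 2.54 to 600.

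**Figure D3:**
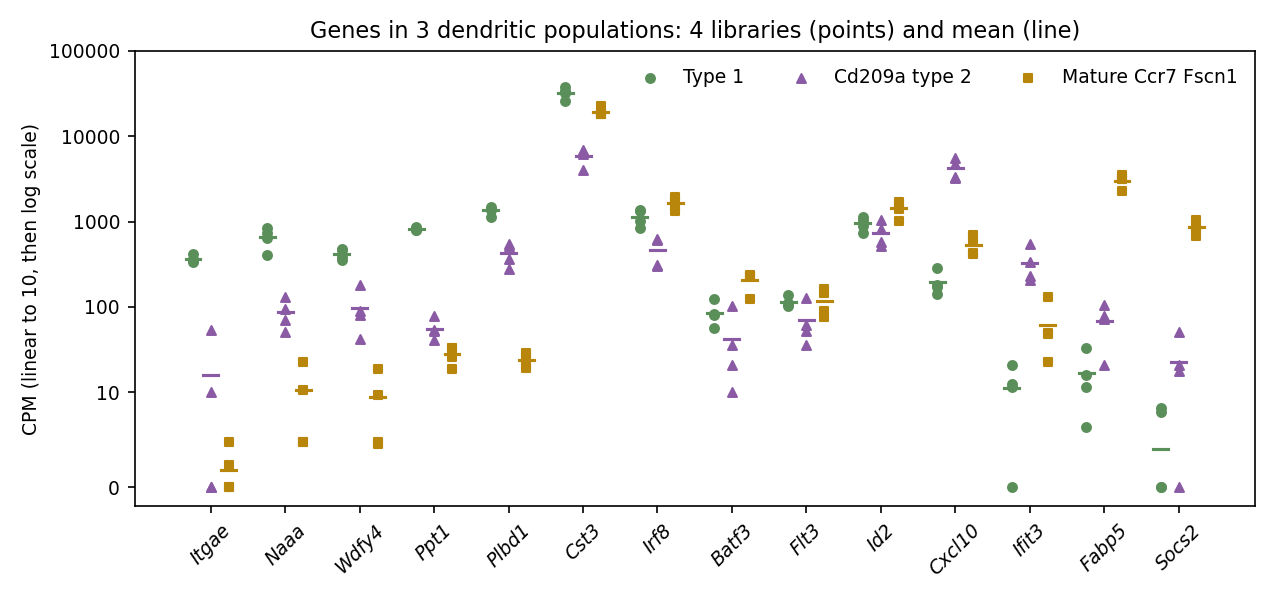
Levels (CPM, linear up to 10 and then on a log axis) of 14 genes in type 1, Cd209a type 2 and mature Ccr7 Fscn1 dendritic cells, with a point per library and a line at the mean. Ppt1, at 796 to 864 CPM in type 1 cells, and Cst3 lie above both other populations, while Cxcl10 is highest in Cd209a cells and Fabp5 in mature cells.

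Antigen presentation genes were partly higher in type 1 cells. H2-Ab1, a beta chain of MHC class II, stood at 12320, 12262, 12588 and 10639 CPM against 5836, 3265, 8055 and 6873 (1.05, adjusted p = 0.00588), and 3 of the 9 tested class II genes rose and 0 fell, with a median of 0.59. In the class I and cross-presentation list 16 genes were tested, and 5 rose and 2 fell, beside 8.58% and 13.3% of all tested genes. Their median was 0.33. The immunoproteasome genes Psmb8 (1.02, adjusted p = 0.00492) and Psmb9 (1.34, adjusted p = 0.00612) and the proteasome activator Psme1 (1.03, adjusted p = 0.00347) rose. Cybb, a subunit of the phagosomal NADPH oxidase, fell, at 31.8, 88.4, 31.6 and 104 CPM against 697, 806, 711 and 325 (−3.24, adjusted p = 0.00116). Costimulatory Cd86 (−1.06, adjusted p = 0.00819) and Cd40 (−1.97, adjusted p = 0.00615) fell as well. Of 7 costimulation genes tested 1 rose and 2 fell, beside 8.58% and 13.3% of all tested genes, with a median of −0.56. Uptake genes included Cd36, a scavenger receptor, with 112 UMIs against 1 (ratio 35.5, counting interval 6.23 to 1413), and Dnase1l3, a secreted nuclease that digests DNA of dead cells, with 141 UMIs against 3 (ratio 14.9, interval 4.99 to 73.0). Of the 26 genes of pattern recognition and dead cell uptake 8 were tested, of which 3 rose and 0 fell, with a median of 0.25. Cd36 and Dnase1l3 had enough counts only through type 1 cells, so this list gives no direction as a group.

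Plet1 was the gene with the largest fitted rise, with 552 UMIs against 3 (ratio 58.2, counting interval 19.8 to 283), and stood at 540, 915, 493 and 415 CPM in type 1 cells. Qpct, a glutaminyl cyclase, rose at 445, 565, 556 and 465 CPM against 0, 112, 53.3 and 41.9 (3.12, adjusted p = 0.000861). Serpinb6b, a serine protease inhibitor, rose at 187, 188, 360 and 183 CPM against 0, 0, 0 and 73.3 (3.24, adjusted p = 0.0140). Each was higher in type 1 cells in all 4 libraries. Of 43 cell cycle genes only 3 had enough counts to be tested. A gene near 0 in Cd209a cells was tested only where type 1 cells carried it, so this list too gives no direction as a group. The genes were Stmn1, which destabilizes microtubules (3.32, adjusted p = 0.00356), and Hmgb2, a chromatin protein of dividing cells (2.47, adjusted p = 0.000474). The third was Cks1b, a partner of cyclin-dependent kinases, with 159 UMIs against 3 (ratio 16.8, counting interval 5.64 to 82.2), and the histone variant gene H2afx had 112 against 3 (ratio 11.8, interval 3.94 to 58.2). Of 9 glycolysis genes tested 6 rose and 0 fell, with a median of 0.95. Gapdh (1.31, adjusted p = 0.00483), Tpi1 (2.89, adjusted p = 0.00545), Aldoa (1.75, adjusted p = 0.0108) and Ldha (0.84, adjusted p = 0.0123) were among them. Of 7 heat-shock genes tested 2 rose, beside 8.58% of all tested genes, and Hspe1 was among them (1.14, adjusted p = 0.0061). Of 15 immediate early genes 3 fell, beside 13.3% of all tested genes, with Atf3 (−0.99, adjusted p = 0.00329) and Jun (−1.49, adjusted p = 0.0108) among them.

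Interferon-induced genes summed to lower levels in type 1 than in Cd209a cells in every library. Cxcl10, a chemokine that draws Cxcr3-bearing T cells, stood at 183, 288, 171 and 141 CPM in type 1 cells and at 5604, 4734, 3361 and 3195 CPM in Cd209a cells (−4.44, standard error 0.18, adjusted p = 2.9e-06). Ifit3, an antiviral RNA-binding protein, stood at 0, 11.5, 12.6 and 20.8 CPM against 207, 541, 231 and 335 (−4.83, standard error 0.46, adjusted p = 0.000274). Every library of Cd209a cells was above every library of type 1 cells for both genes. Ifit3 has a near-identical neighbour, Ifit3b, so its counts may be shared between them. Of 18 tested type I interferon-stimulated genes 14 fell and 0 rose, with a median of −1.82, and further examples were Ifit1 (−3.81, adjusted p = 0.00144), Rtp4 (−4.23, adjusted p = 0.00109), Rsad2 (−3.00, adjusted p = 0.00137) and Ifitm3 (−1.72, adjusted p = 0.00123). Ifit1, Ifit3 and Rtp4 had enough counts only through Cd209a cells, so the count and median give no direction as a group. The whole list of 24 genes summed to 3698, 6696, 7964 and 6333 CPM in type 1 cells and to 20762, 23651, 15541 and 18398 CPM in Cd209a cells. All 4 tested interferon-gamma-induced GTPases fell, with a median of −2.10, such as Gbp2 (−2.98, adjusted p = 5e-05) and Igtp (−1.81, adjusted p = 0.00329). The whole list of 14 GTPases summed to 266, 688, 291 and 532 CPM against 1110, 2490, 1031 and 3384. Irf7 did not pass, at 417, 519, 935 and 664 CPM against 852, 1439, 320 and 702 (−0.36, adjusted p = 0.571).

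Some other signals were lower in type 1 cells too. Ccl9 stood at 3.97, 3.84, 12.6 and 4.15 CPM against 362, 551, 765 and 304 (−6.21, adjusted p = 2e-05), and Ccl5 at 35.7, 46.1, 31.6 and 316 CPM against 1265, 1571, 498 and 1435 (−3.85, adjusted p = 0.000861). Type 1 cells were the lower population in each library for these chemokines. Of 10 cytokine and chemokine genes tested 4 fell and 0 rose, with a median of −0.94. Cxcl9 did not pass (−0.82, adjusted p = 0.265), but did without shNC 2 (−1.35, adjusted p = 0.0379, the lowest over the alternatives, whose highest was 0.802). S100a4 (−4.44, adjusted p = 0.00121), the membrane channel gene Tmem176b (−3.82, adjusted p = 0.000861), the large scaffold protein gene Ahnak (−3.79, adjusted p = 0.000274) and the lectin gene Clec10a, itself known for type 2 cells (−3.85, adjusted p = 0.000601), completed the largest falls. Of 10 receptor genes tested 2 fell, beside 13.3% of all tested genes, with a list median of −0.02. Among them was Ccr2, which guides monocyte-derived cells (−1.55, adjusted p = 0.0061). In the maturation list 3 of 6 tested genes fell, with a median of −1.10, such as Traf1 (−1.13, adjusted p = 0.0079) and Marcksl1 (−2.14, adjusted p = 0.00588).

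**Figure D4:**
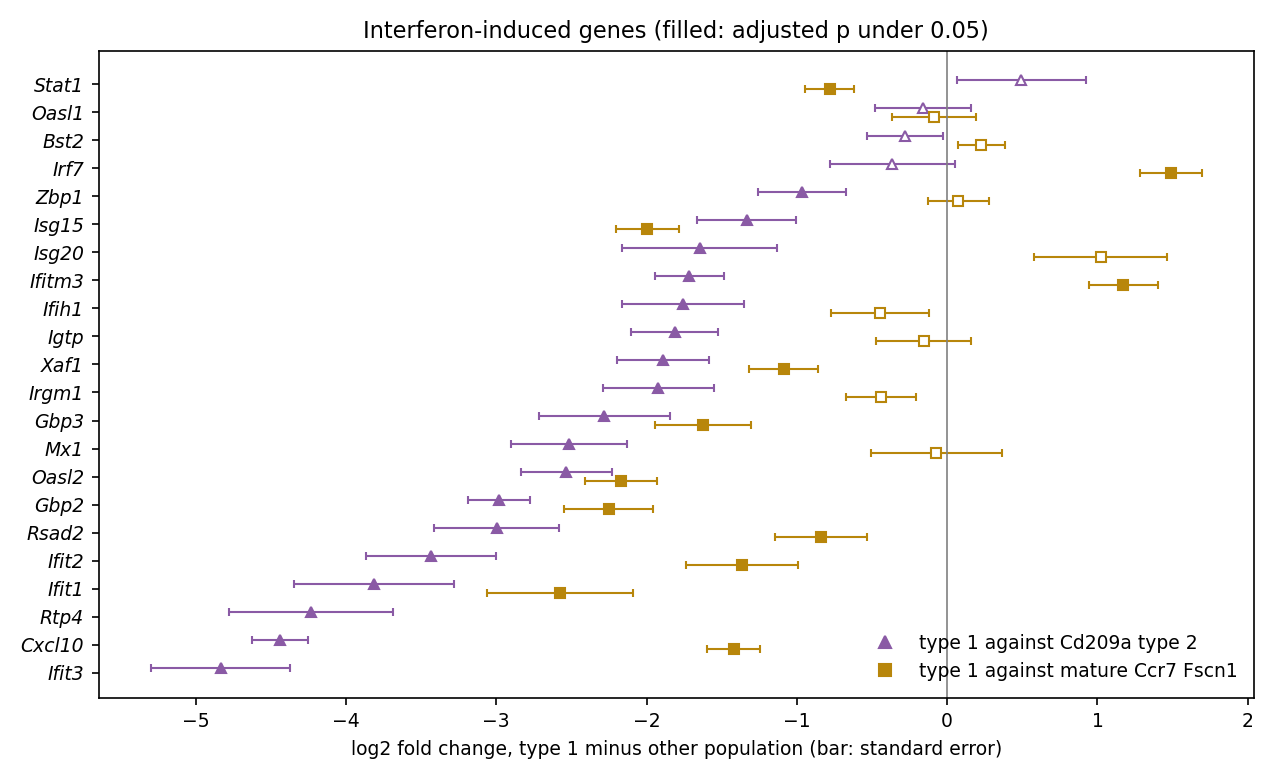
Log2 fold change of interferon-induced genes in type 1 cells minus Cd209a type 2 cells (triangles) and minus mature cells (squares), with the standard error as a bar and filled symbols where the adjusted p was under 0.05. Against Cd209a cells 14 of 18 type I genes and all 4 GTPases are filled and lie to the left, while against mature cells Irf7 (1.49) and Ifitm3 (1.17) lie to the right.

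The promoters of interferon-induced genes are shown because 14 of the 18 type I genes tested against Cd209a cells fell. Against mature cells the list was mixed. The motif GAAANNGAA, the core of the element bound by interferon regulatory factors, was chosen after the values were seen and searched on both strands of 300 bases, from 250 before to 50 after the start of each gene (RefSeq, GRCm38.p6). It was found in 12 of the 18 type I genes (of 24 listed) that have a promoter in that set, among them Isg15, Rsad2 and Ifitm3. Of all 27025 genes 9.76% had it, and of all 32851 promoters 8.56%. The list was chosen as genes known to be induced by interferon, so its share says nothing of the differences measured here. Stat2, Oas1a, Ifi44 and Ddx58 had the motif but were not tested against Cd209a cells. The motif TGANTCA, bound by AP-1 factors such as Fos, Jun and Batf3, was found in 2 of 21 identity genes, Zbtb46 and Havcr2, and in 0 of 14 immediate early genes, beside 8.97% of all genes and 7.81% of all promoters. A match describes the letters and shows no binding. The promoters of Ifit3 (chr19:34583279-34583578, plus strand), Ifit1 (chr19:34640639-34640938, plus strand) and Cxcl10 (chr5:92348840-92349139, minus strand) hold 3, 3 and 1 matches, which are in capitals, 5′ to 3′.
Ifit3: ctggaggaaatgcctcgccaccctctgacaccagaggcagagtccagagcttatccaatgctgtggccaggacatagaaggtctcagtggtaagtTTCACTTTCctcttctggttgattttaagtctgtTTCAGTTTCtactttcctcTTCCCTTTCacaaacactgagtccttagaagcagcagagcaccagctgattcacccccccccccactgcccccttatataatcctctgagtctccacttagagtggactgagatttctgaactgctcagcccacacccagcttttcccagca
Ifit1: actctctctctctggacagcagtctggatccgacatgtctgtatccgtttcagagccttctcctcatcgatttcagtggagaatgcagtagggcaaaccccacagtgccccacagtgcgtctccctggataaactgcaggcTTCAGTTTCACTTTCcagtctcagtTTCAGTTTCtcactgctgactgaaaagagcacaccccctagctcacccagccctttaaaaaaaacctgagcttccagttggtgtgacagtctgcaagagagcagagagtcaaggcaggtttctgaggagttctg
Cxcl10: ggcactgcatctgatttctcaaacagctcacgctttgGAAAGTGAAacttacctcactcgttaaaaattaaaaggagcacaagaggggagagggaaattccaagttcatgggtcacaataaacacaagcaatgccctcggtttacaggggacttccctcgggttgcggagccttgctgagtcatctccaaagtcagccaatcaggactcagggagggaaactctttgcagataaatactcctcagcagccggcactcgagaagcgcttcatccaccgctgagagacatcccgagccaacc

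Mature dendritic cells, which carried Ccr7 and Fscn1, differed from type 1 cells in more of the tested genes. Naaa, Plbd1, H2-Ab1 and Ldha were higher in type 1 cells in all 4 libraries. The costimulatory ligand Cd80, the chemokine Ccl5 and the NF-kB subunit Relb were lower in all 4. The comparison set 67 cells against 221 (33, 68, 44 and 76 per library), with genes of either rule left out. Of 3262 genes tested, edgeR called 1561 (47.9%), with 775 higher (23.8%) and 786 lower (24.1%) in type 1 cells. Every list count against mature cells below is to be read beside these shares. The mature cells held 1602635 UMIs in sum and the Cd209a cells 288418, so the shares called against each were not at equal depth. The mature cells may descend from either kind of dendritic cell, and their origin was not tested.

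Naaa stood at 850, 742, 404 and 644 CPM in type 1 cells and at 4.77, 4.74, 22.6 and 10.6 CPM in mature cells (5.90, standard error 0.39, adjusted p = 4.4e-06). Wdfy4 stood at 481, 469, 354 and 382 CPM against 4.77, 18.9, 9.69 and 4.54 (5.45, standard error 0.31, adjusted p = 1.6e-06). Plbd1, a lysosomal phospholipase, stood at 1418, 1480, 1358 and 1138 CPM against 19.1, 26.0, 29.1 and 21.2 (5.82, standard error 0.19, adjusted p = 1.6e-07). These genes were low in every mature library. Itgae had 338 UMIs against 2, a ratio of 297 with a counting interval of 81.7 to 2465. Further genes with large rises were Qpct (6.47, adjusted p = 1.3e-06), Plet1 (5.40, adjusted p = 6.6e-05), Ppt1 (4.94, adjusted p = 4.3e-07), Cd36 (4.71, adjusted p = 5.8e-05), Rab7b (4.47, adjusted p = 0.000177) and Gpr171, an orphan-family receptor (4.69, adjusted p = 2e-06).

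Of 22 tested identity genes 14 rose and 6 fell, with a median of 2.36 beside a median of −0.00027 for all tested genes. Some, such as Itgae and Snx22, had enough counts only through type 1 cells, so this list gives no direction as a group. The genes that fell included transcription factors, and Batf3 stood at 123, 80.7, 56.8 and 83.1 CPM against 124, 239, 233 and 228 (−1.20, adjusted p = 0.00653). Irf8 fell at −0.50 (adjusted p = 0.0107), but not without shSELP 2 (−0.42, adjusted p = 0.0556, the highest over the alternatives, whose lowest was 0.000986), and Nfil3, which acts upstream of Batf3 in development, at −1.51 (adjusted p = 0.00236). For Batf3 all 4 type 1 libraries lay below every mature library, shNC 1 only just. Ly75, the endocytic receptor DEC-205, fell as well (−2.58, adjusted p = 2.3e-05). Flt3 was level, at 139, 104, 107 and 112 CPM against 76.3, 161, 90.5 and 147 (−0.01, adjusted p = 0.979), and its sign changed between settings. Cadm1 (3.56, adjusted p = 7.6e-05), Tlr3 (3.39, adjusted p = 0.00282), Cd24a (2.48, adjusted p = 7.6e-05), Cst3 (0.78, adjusted p = 0.000342) and the checkpoint receptor Havcr2 (4.03, adjusted p = 2.3e-05) rose. Snx22, a sorting nexin, had 59 UMIs against 2 (ratio 51.9, counting interval 13.7 to 438).

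Antigen presentation split between the classes. H2-Ab1 stood at 12320, 12262, 12588 and 10639 CPM in type 1 cells and at 2822, 3140, 2837 and 1982 CPM in mature cells (2.21, standard error 0.12, adjusted p = 1.3e-06). The class II peptide exchanger H2-DMb1 (3.47, adjusted p = 8.1e-06) and the invariant chain Cd74 (1.32, adjusted p = 1.1e-05) rose too, and 8 of 11 class II genes rose and 0 fell, with a median of 1.44. For class I the heavy chain H2-K1 stood at 2470, 2122, 2324 and 2384 CPM against 4328, 4307, 4595 and 4935 (−0.92, adjusted p = 0.000119). B2m, its light chain (−0.94, adjusted p = 8e-05), and the proteasome activator Psme2 (−1.60, adjusted p = 5.5e-05) fell, while Calr, a chaperone that loads class I, rose (1.58, adjusted p = 8.4e-05). Type 1 cells were above mature cells for class II and below them for the class I chains in every library. Of 19 genes of the class I and cross-presentation list 3 rose and 8 fell, beside 23.8% and 24.1% of all tested genes. Their median was −0.25.

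Most genes of the maturation list were lower in type 1 than in mature cells, which the rules separate by Ccr7. An exception in size was Cd83, with a UMI in 60.6% of thinned type 1 and 69.9% of thinned mature cells. Tnfrsf4 was at 0 in all type 1 libraries and at 162, 348, 181 and 247 CPM in mature cells, so it was at least 75.8-fold lower with a floor of 3 UMIs over the population. Tnfrsf9, Nudt17, Cd70, Il2ra and the unnamed gene Gm47662, also at 0 in type 1 cells, were at least 64.0-fold, 57.4-fold, 32.2-fold, 29.9-fold and 34.5-fold lower. Tnfrsf4, Tnfrsf9 and Cd70 are costimulatory receptors or ligands of the TNF family. Fabp5, a fatty acid carrier, stood at 15.9, 11.5, 6.32 and 33.2 CPM against 3137, 3514, 2291 and 3133 (−7.42, adjusted p = 2.1e-07), and Socs2, an inhibitor of cytokine signalling, at 7.94, 0, 0 and 8.31 CPM against 829, 1056, 669 and 870 (−7.49, adjusted p = 1.5e-06). Mature cells were far above type 1 cells for these genes in each library. Cacnb3, a calcium channel subunit, had 2 UMIs against 885 and was lower by a ratio of 252 (counting interval 69.4 to 2080), and Gm13546 had 1 against 449 (ratio 255, interval 45.6 to 10104). Some genes of the maturation list, such as Tnfrsf4 and Socs2, had enough counts only through mature cells. The whole list of 20 genes summed to 1068, 1422, 1762 and 1424 CPM in type 1 cells and to 15192, 15636, 13159 and 14717 CPM in mature cells. Of the 20 genes 19 were tested, and 18 fell and 0 rose, with a median of −4.06, also with the 3 genes at 0 set to their bounds. Relb, an NF-kB subunit (−2.76, adjusted p = 8.6e-06), Samsn1 (−4.87, adjusted p = 4e-07), Birc2 (−3.76, adjusted p = 8.6e-06) and Traf1 (−2.32, adjusted p = 8.6e-06) were among them.

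Ligands for T cells followed the same order. The checkpoint ligand Cd274 stood at 167, 108, 114 and 108 CPM in type 1 cells and at 434, 606, 514 and 532 CPM in mature cells (−2.04, adjusted p = 6e-05), and the other PD-1 ligand Pdcd1lg2 fell too (−1.03, adjusted p = 0.00384). Cd40 (−1.71, adjusted p = 0.000793), Cd80 (−1.70, adjusted p = 7.9e-05) and Cd200 (−5.49, adjusted p = 1.4e-05) fell. Of 13 tested costimulation genes 2 rose and 10 fell, with a median of −1.70, also with Cd70 at its bound. Cd70 and Cd200 had enough counts only through mature cells, so the count and median give no direction as a group. The whole list of 19 genes summed to 1454, 1768, 1680 and 1483 CPM in type 1 cells and to 3637, 3852, 4124 and 3467 CPM in mature cells. Among signals, Ccl5 stood at 35.7, 46.1, 31.6 and 316 CPM against 8761, 8782, 10196 and 10530 (−6.80, adjusted p = 5.6e-06). Ccl22 (−3.20, adjusted p = 0.00183), Il15 (−3.88, adjusted p = 0.000129) and Cxcl10 (−1.42, adjusted p = 0.000134) fell as well, and of 14 tested cytokine genes 1 rose and 6 fell, with a median of −1.30. Il12b was close to the limit, at 23.8, 15.4, 278 and 70.6 CPM against 1011, 35.5, 313 and 165 (−1.78, adjusted p = 0.0549). It passed without shNC 2 (−1.88, adjusted p = 0.0462) and without shSELP 1 (−2.88, adjusted p = 0.00399), while over all alternatives the adjusted p ran from 2.4e-10 to 0.155.

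Among the receptors and sensors that had enough counts, more genes rose than fell in type 1 cells relative to mature cells. Kit, the stem cell factor receptor, stood at 95.3, 142, 94.7 and 66.4 CPM against 33.4, 26.0, 19.4 and 24.2 (1.96, adjusted p = 0.000575). Ccr2 (3.77, adjusted p = 0.0022), Ifngr1 (1.53, adjusted p = 0.000333) and Csf2rb (0.92, adjusted p = 0.00176) rose, whereas Il15ra, which presents interleukin 15 to lymphocytes, fell (−4.78, adjusted p = 2.3e-06). Of 13 receptor genes tested 6 rose and 2 fell, with a median of 0.50. Of 12 genes of pattern recognition and dead cell uptake 7 rose and 0 fell, with a median of 0.81, such as Unc93b1, the chaperone of endosomal Toll-like receptors (1.46, adjusted p = 0.000312), Irf7 (1.49, adjusted p = 0.00029) and Dnase1l3 (1.11, adjusted p = 0.00741). Ccr2 and Cd36 each had a UMI in 0.457% of thinned mature cells, against 16.7% and 24.2% of thinned members. They had enough counts only through type 1 cells, so neither list gives a direction as a group. Interferon-induced genes were mixed, with 2 of 20 higher and 8 lower, beside 23.8% and 24.1% of all tested genes, and a median of −0.11. Isg15 (−1.99, adjusted p = 6e-05), Oasl2 (−2.17, adjusted p = 7.5e-05) and Ifit1 (−2.57, adjusted p = 0.00182) fell and Ifitm3 rose (1.17, adjusted p = 0.00234). Of 7 tested GTPases 4 fell, with a median of −1.62, such as Gbp2 (−2.25, adjusted p = 0.000212) and Gbp5 (−2.75, adjusted p = 9.3e-05).

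More glycolysis genes rose than fell in type 1 cells relative to mature cells. Ldha stood at 878, 846, 979 and 1047 CPM against 358, 268, 168 and 177 (2.05, adjusted p = 0.000119), and of 13 glycolysis genes 7 rose and 0 fell, with a median of 1.10. Pfkp, a phosphofructokinase, was another (2.13, adjusted p = 3e-05). Every type 1 library was above every mature library for Ldha. Of 43 cell cycle genes 13 had enough counts to be tested, so the list again gives no direction as a group. Of these 8 rose and 1 fell, with a median of 1.62, and 2 were higher in every type 1 library than in every mature library. Examples that rose were Ube2c, which drives exit from mitosis (2.96, adjusted p = 0.00152), and Stmn1 (2.39, adjusted p = 6e-05). Heat-shock genes had 2 of 9 higher, which is near the 23.8% of all tested genes, such as Hspa8 (0.83, adjusted p = 0.000269), and a median of 0.31. Of 16 immediate early genes 6 rose and 2 fell, beside 23.8% and 24.1% of all tested genes, with a median of 0.53. Atf3 (1.27, adjusted p = 0.00746) and Nr4a1 (1.79, adjusted p = 0.00281) rose and Klf6 fell (−1.66, adjusted p = 0.000357). Lyz2, a lysozyme shared with macrophages, rose (1.81, adjusted p = 0.00146) but did not pass with the 14 members that carried other cells' markers left out (0.74, adjusted p = 0.0668, the highest over the alternatives, whose lowest was 1.2e-14). Lyz2 is in the macrophage list by which members were left out, so that alternative partly selected on it and cannot decide its rise.

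The list of the selectin axis, which the hairpin targets in the tumor cells, summed to 949, 803, 777 and 748 CPM in type 1 cells. Selplg, the gene of the P-selectin ligand PSGL-1, gave a part of this sum. Selplg stood at 246, 304, 240 and 253 CPM in type 1 cells, with a log2 fold change of −0.09 between groups (standard error 0.23, adjusted p = 0.996). The levels overlapped between groups. They were lower than in mature cells, at 686, 691, 789 and 746 CPM (−1.43, adjusted p = 8.1e-05), and did not differ at the limit from Cd209a cells, at 465, 357, 356 and 262 CPM (−0.42, adjusted p = 0.209). Selp had 1 UMI in 1 of 67 members. Of the 14 genes of the list 5 were tested between groups, with a median of −0.09. Against Cd209a cells 1 of 4 rose and 2 fell, beside 8.58% and 13.3% of all tested genes. Against mature cells 1 of 5 rose and 1 fell, beside 23.8% and 24.1%.

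The response to the hairpin was also compared between the dendritic populations. A term for the difference in response between type 1 and Cd209a cells was called for 1 of 2315 genes (0.0432%), with 105 at an unadjusted p under 0.05. This gene was Fosb, which fell in type 1 relative to Cd209a cells (−5.47, standard error 0.66, adjusted p = 0.00219). It stood at 175, 319, 56.8 and 83.1 CPM in type 1 cells and at 25.8, 51.0, 373 and 597 CPM in Cd209a cells, where the UMIs numbered 1, 5, 21 and 57. A single Cd209a cell of shSELP 2, which Scrublet called a doublet, held 54 of the 57 UMIs. An alternative chosen after seeing the data left out the Scrublet calls, and 0 of 2304 genes were called by edgeR (94 at an unadjusted p under 0.05), with Fosb at −3.89 (adjusted p = 0.694). Without shNC 2 no gene was called and the adjusted p of Fosb was 0.363, while over all alternatives it ran from 6.6e-10 to 0.694. Leaving out another library changed the count, and 19, 40 and 16 genes were called without shNC 1, shSELP 1 and shSELP 2.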

How the data were processed

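The counts used are UMI counts per cell, which the authors made with Cell Ranger 1.3 on mm10 before the tables were deposited. Each library of the mixture corresponds to 8 GEO entries, and cells were assigned to libraries by the prefix of their barcode. UMIs of the cells of a population were summed per library and tested with edgeR 4.0.16 (TMM, quasi-likelihood, filterByExpr, Benjamini-Hochberg over all tested genes, threshold 0.05) under R 4.3.3, with DESeq2 1.42.0 as an alternative. Shares were compared with exact permutations (scipy 1.17.1), and genes were located with GENCODE M21.

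The labels number the libraries but do not say whether equal numbers are pairs. With 2 libraries per group the residuals mirror each other, so their correlation within a number (−0.0907) cannot decide this. No replicate block was used in the reported fits. Against the other dendritic cells the library was a term of the model. A gene near 0 in a population was tested only where the other population carried it, so list counts and medians depend on that filter.

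The members and the lists were chosen with earlier results of these data known. Genes outside the lists were named by rule: up to 10 called genes per direction with the largest log2 fold change and at least 100 CPM, or, where fewer than 5 passed, the 5 of lowest p per direction, and examples from the lists were chosen after their values were seen.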

Additional observations from a re-analysis of the deposited data

Results flagged for a closer look

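The response of Fosb to the hairpin differed between the dendritic populations, by a log2 difference of −5.47 for type 1 minus Cd209a type 2 cells (interaction term, standard error 0.66, p = 9.4e-07, adjusted p = 0.00219). Fosb is a transcription factor of the AP-1 family that is switched on within minutes of stimulation. The Cd209a levels rest on 1, 5, 21 and 57 UMIs in 7, 13, 8 and 8 cells, and 1 cell of shSELP 2 that Scrublet called a doublet held 54 of the 57. Without the doublet calls the difference did not pass (−3.89, adjusted p = 0.694), nor without shNC 2 (−5.57, adjusted p = 0.363).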

How the results depend on the processing

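Between shSELP and shNC type 1 cells, edgeR called 0 genes (175 at an unadjusted p under 0.05), and DESeq2, a stricter rule, members with other cells' markers left out and thinned cells gave 0 as well. Scrublet called 0 of the 67 members, so leaving its calls out removed no cell here and was no test. With library number as a replicate block the count was 0, with 149 at an unadjusted p under 0.05. Without the filter on low counts it was 36 of 11470 genes. When each library was left out in turn the count ran from 36 to 49, where the lone library of a group was assumed to vary like the others, and the cause was not tested. Of 27 single genes, 24 passed in at least 1 alternative in the direction reported, only without the filter or with a library left out, and none of the 27 under the other alternatives, and Ly6d turned, with a log2 fold change from −6.72 without shSELP 2 to 9.14 without shNC 1, where 1 cell of shSELP 2 held 148 of its 178 UMIs.

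Against Cd209a cells, 372 genes were called, and 689 without the filter, 53 of 360 tested genes in thinned cells, where fewer genes had enough counts, and 236 to 418 when a library was left out. Of 55 single genes each kept its sign wherever it was tested. In thinned cells 23 of them were tested and 6 no longer passed, Irf8 among them (log2 fold change 1.13, adjusted p = 0.104), and 3 genes that had not passed did so in 1 alternative, such as Batf3 with the members that carried other cells' markers left out (1.58, adjusted p = 0.0410). Against mature cells, 1561 genes were called and 441 of 789 tested genes in thinned cells. The exceptions among 77 single genes were Irf8 without shSELP 2, Lyz2, Il12b, which passed in 5 alternatives, and Flt3, whose log2 fold change of −0.01 turned to 0.0221 with DESeq2 and 0.0662 with at least 3 UMIs of the rule's genes, and ran from −0.23 to 0.20 when a library was left out, with 0.11 without shSELP 2. None of these values of Flt3 passed the test.

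For the interaction, 1 gene was called, 3 without the filter, 0 to 40 when a library was left out, and 0 with the Scrublet calls left out, an alternative chosen after seeing the data, where the cell that held 54 of 57 UMIs of Fosb in shSELP 2 was dropped. The cause of the other changes was not tested. The mean share of type 1 cells was lower in shSELP in every alternative, with a difference of −0.215 percentage points in thinned cells, where the groups overlapped. When a library was left out it was −0.319 to −0.278. Both shSELP shares lay below both shNC shares, so leaving a library out could not change the sign. The limit on mitochondrial UMIs removed no cell and was no test. The difference in cycling members, 2.34 percentage points, was 15.9 without thinning, 7.52 with at least 3 UMIs of the rule's genes, −0.165 with at least 2 cycling UMIs, and −10.2 to 14.8 when a library was left out. The cause was not tested.

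The depth of the members set a limit. The 13 to 20 members of a library held 158329 to 260162 UMIs in sum, and a gene below 3 UMIs there lay under 11.5 to 18.9 CPM. Of 20300 genes, 3154 were tested between groups and 1702 against Cd209a cells, whose 7 to 13 cells per library were the thinnest. Each group had 2 libraries, and the methods give a pool of 3 brains per group. The labels do not say whether the libraries came from separate animals, so they give no measure of the spread between animals. The smallest p that the permutation test allowed was 0.333. Some members carried transcripts of other cells. Cells with fewer than 2 UMIs of Xcr1 and Clec9a were not counted as members, whatever their other genes.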

Other observations

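The CD11b+ libraries of the series, taken at day 21 per the labels with 1 library per group, held almost no type 1 dendritic cells, which carry little CD11b. The group of these libraries was taken from the column prefixes, since some of the entries titled shSELP carry a description of the negative control. The rule selected 1 of 2731 cells in shNC and 2 of 2804 in shSELP. The shNC cell had 3585 UMIs, with Clec9a at 2, Irf8 at 1, Wdfy4 at 2, Cst3 at 24 and H2-Ab1 at 16 UMIs. The shSELP cells had 3837 and 3315 UMIs, with Xcr1 at 1 and 2, Itgae at 1 and 2, Flt3 at 1 and 1, Irf8 at 9 and 6, Naaa at 5 and 1, Wdfy4 at 4 and 3, Cst3 at 136 and 75 and H2-Ab1 at 27 and 28 UMIs. No group comparison was made on 3 cells.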
